A study of Mus musculus with 30 samples.

Results

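Transcripts of heat shock proteins and their partners were examined in leukocytes from the peripheral blood of inbred DBA/2 mice, untreated or given cyclophosphamide, an alkylating agent used in chemotherapy. The genes were chosen by name: heat shock proteins of the Hspa, Hspb, Hspd, Hspe, Hsph and Hsp90 families, J-domain proteins (Dnaj), the cytosolic chaperonin (Cct2 to Cct8 and Tcp1), protein disulfide isomerases (Pdia, without Pdia4), calreticulin (Calr) and calnexin (Canx), and the prolyl isomerases and co-chaperones named Fkbp, Ppia to Ppih and Bag1 to Bag6. The array carried 91 probes for 85 such genes. Of these, 33 had values in 3 or more replicates of the first 3 groups (untreated, day 1, day 2) and in 2 or more replicates of day 5. These 33 are the genes described below, among 6515 array features that passed the same filter. The blood samples were 4 from untreated mice, and 4, 4 and 3 taken 1, 2 and 5 days after 83 mg per kg of the drug into the peritoneum. Each was measured in 2 technical replicates, which were averaged. Values are log2 ratios of blood leukocytes (Cy5) over a bone marrow reference (Cy3), so a value of 0 is the level of the marrow pool. The labels name that pool as untreated in one field and as treated with the drug in another. Because the same reference was assumed on every array, only differences between blood groups were tested. The labels give no age or sex, and no count of mice per sample.

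Chaperones bind unfolded proteins and keep them from aggregating. HSP70 proteins cycle between ATP and ADP with the help of J-domain proteins, which bring them clients, and of nucleotide exchange factors such as the BAG proteins. HSP90 and the ring-shaped chaperonin TRiC receive part of these clients, among them kinases, actin and tubulin, while calreticulin, calnexin and the disulfide isomerases act on secretory proteins in the endoplasmic reticulum. Cytosolic heat shock genes are induced by heat shock factor 1 and endoplasmic reticulum chaperones by the unfolded protein response.

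Several leukocyte marker lists lay above marrow in untreated blood, and those of mature neutrophils and plasma cells did not. The mean log2 ratio per sample lay between 0.56 and 0.97 over 6 tested monocyte markers, between 0.25 and 0.70 over 6 B cell markers, between 0.28 and 1.86 over 3 T cell markers and between 0.69 and 1.33 over 4 NK and cytotoxic markers. It lay between -0.45 and 0.09 over 6 mature neutrophil markers and between -0.17 and 0.14 over 4 plasma cell markers. The neutrophil markers lay on both sides of marrow. S100a9, Fpr2 and Mmp9 averaged -2.34, -1.33 and -1.26, while Clec4e, Trem1 and Csf3r averaged 2.02, 2.00 and 0.45. Over 6 platelet markers the mean per sample lay between 2.00 and 2.18, and over 6 markers of dividing cells between -1.69 and -1.15. Column medians lay between -0.0028 and 0.025, so that all changes are relative to the average feature. The spread of values over probes differed between samples, with an SD of 0.38 in untreated replicate 2, the narrowest sample, and of 0.65 in day 1 replicate 2, the widest. Day 2 replicate 1 had values for 5751 probes, the fewest.

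Coverage of the families was uneven, which decides what can be said of them. A value was present often enough for 38.8% of the chaperone genes, against 49.1% of all 9616 named genes. The J-domain family had 29 genes on the array and 11 tested, the FKBP family 11 and 4, the HSP70 and HSP110 family 11 and 2, and TRiC 9 and 5. Both small heat shock proteins that were tested, Hspb1 and Hspb2, came from 6 on the array. Of the cyclophilins 4 of 6 were tested, of the disulfide isomerases and lectin chaperones 2 of 4, of the BAG and HSP70-binding proteins 2 of 6, and of HSP90 1 of 2. Among the 52 genes not tested, 16 had no value in any sample, 25 had values in 1 to 5 samples and 11 in 6 or more. Several abundant chaperones are among them. Hspa8, the constitutive cytosolic HSP70, had a value in 3 samples, and Hspa5, the HSP70 of the endoplasmic reticulum, in 2. Hsp90aa1 had values in 4 samples, 1 in each group, and Hspe1, the mitochondrial co-chaperonin, in 7. Dnaja1 and Dnajc3 had none. The sources used here do not say why values are missing, and a missing value was not read as a low level.

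**Figure D1:**
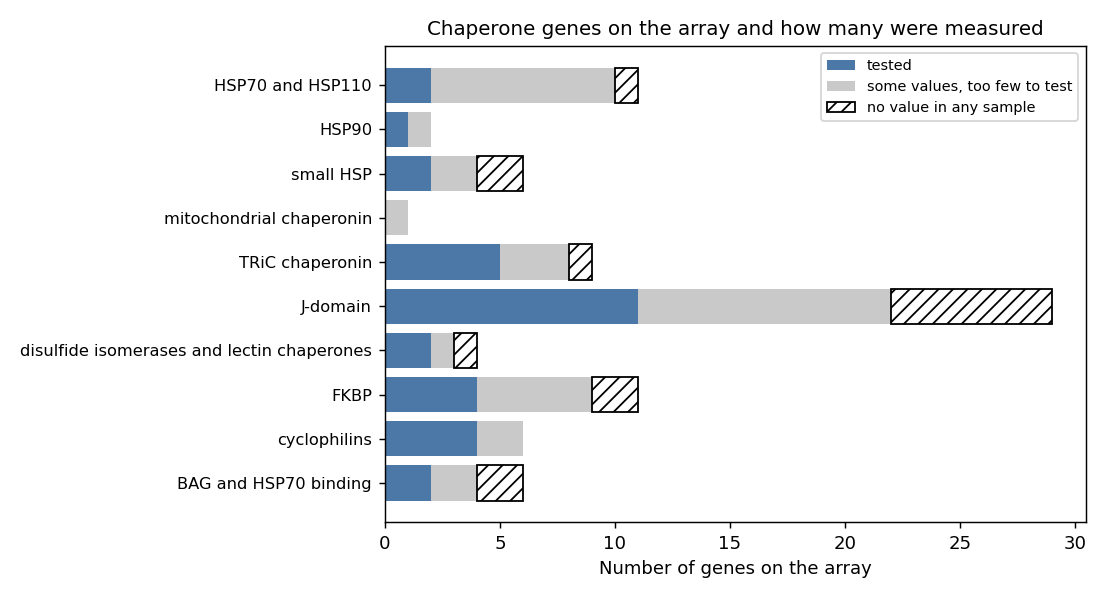
Number of chaperone genes on the array in each family (horizontal axis), split into genes tested, genes with too few values to test and genes with no value in any of the 15 samples. The J-domain family is the largest, with 11 tested of 29, and HSP70 and HSP110 is among the thinnest, with 2 of 11.

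Few of the 33 chaperone genes passed a test for a change after the drug. In limma's moderated F test across the 4 groups, 4 of the 33 genes passed (Hspb2, Dnaja2, Fkbp9 and Dnajc4), with adjusted p = 4.66e-05, 0.0011, 0.0020 and 0.035, against 22.7% of all tested features. All p-values were adjusted over the 6515 features by the Benjamini-Hochberg method, and a gene was called at an adjusted p under 0.05. The 4 genes belong to 3 families, and none of the tested HSP70, HSP90, TRiC, disulfide isomerase, cyclophilin or BAG genes passed in any comparison. Between 1.09% and 25.5% of all features were called per comparison, and each of these families holds few tested genes. The median SD between samples of a group was 0.21 over the 33 genes and 0.22 over all features. Technical replicates of a sample differed by a median of 0.11 over the 33 genes.

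At day 1 no chaperone gene of the 33 was called higher or lower than in untreated mice. Of all features 4.6% were called, 2.29% higher and 2.32% lower. At an unadjusted p under 0.05 there were 4 chaperone genes (12.1%, against 21.1% of all features), Fkbp9 (0.35 ± 0.10, SE, adjusted p = 0.064), Hspa9 (0.34 ± 0.13), Hspb2 (-0.36 ± 0.14) and Dnajc30 (-0.30 ± 0.13). Under other settings up to 3 genes were called. Fkbp9 was called after quantile normalization, with complete features only, with a sample random effect, a robust trended prior or array weights. It was also called without day 1 replicate 3, together with Fkbp1a and Hspb2, and without day 5 replicate 3. Array weights added Hspb2. The median change of the 33 was -0.029, against 0.032 over all features, and no chaperone gene changed by 0.5 or more in size, against 10.1% of features. The values of the 2 groups did not overlap for 5 chaperone genes, against 18.3% of features: Fkbp9, Hspa9 and Cct5 lay higher and Cct8 and Dnaja2 lower in every day 1 sample with a value.

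At day 2, Hspb2 and Dnaja2 fell and Fkbp9 rose relative to untreated mice. Of all features 12.7% were called, 4.83% higher and 7.84% lower. The median change of the 33 was -0.012, against 0.059 over all features. At day 5, Hspb2 alone was called, and it was higher than in untreated mice, where 1.09% of features were called, 0.261% higher and 0.829% lower. Between the treated groups, Dnaja2 was lower at day 2 than at day 1 (1.15% of features called, 0.537% higher and 0.614% lower). Hspb2, Dnaja2 and Dnajc4 were higher and Fkbp9 lower at day 5 than at day 2, where 25.5% of features were called, 12.8% higher and 12.7% lower. These comparisons share samples and are not independent of each other.

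Hspb2 encodes a small heat shock protein best known from heart and skeletal muscle, where it binds the myotonic dystrophy protein kinase. Its log2 ratios were 0.62, 0.72, 0.65 and 0.59 in untreated samples, 0.12, 0.06, 0.75 and 0.24 at day 1, -0.11, -0.05 and -0.26 in the 3 day 2 samples with a value, and 1.27, 1.57 and 1.59 at day 5. The day 2 samples lay below and the day 5 samples above all others, while 3 of the 4 day 1 samples lay below the untreated range and replicate 3 above it. The change at day 2 against untreated was -0.79 ± 0.15 (SE, limma adjusted p = 0.0032), and the mean fell to -0.14 ± 0.11 (SD, n = 3) at day 2, against 0.65 ± 0.05 (SD, n = 4) in untreated mice. At day 5 the mean was 1.48 ± 0.18 (SD, n = 3), a change of 0.83 ± 0.15 against untreated (SE, adjusted p = 0.014) and of 1.62 ± 0.16 against day 2 (SE, adjusted p = 9.02e-06). The rise over untreated was not called after quantile normalization (0.74, adjusted p = 0.103), with technical replicate 2 alone (0.68, adjusted p = 0.0958), with array weights (0.78, adjusted p = 0.0602) or without untreated replicate 4 (0.81, adjusted p = 0.05003), and it was called in 22 of 26 alternatives. In the RefSeq annotation of mouse the range of Cryab, another small heat shock gene, contains that of Hspb2. The Cryab probe had too few values to be tested, between -0.17 and 0.43 in the 8 samples with one, and strand is not given for either probe.

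Dnaja2 encodes a J-domain co-chaperone of cytosolic HSP70. Its log2 ratios were 0.19, 0.10, 0.22 and 0.18 in untreated samples, -0.07, 0.08, 0.09 and 0.08 at day 1, -0.77, -0.54, -0.36 and -0.29 at day 2, and 0.49, 0.29 and 0.09 at day 5. All 4 day 2 samples were below every other sample, and the day 5 samples overlapped the untreated ones. Against untreated mice it fell by 0.66 ± 0.12 at day 2 (SE, adjusted p = 0.0014), and against day 1 by 0.54 ± 0.12 (SE, adjusted p = 0.042). From day 2 to day 5 it rose by 0.78 ± 0.13 (SE, adjusted p = 3.51e-04). The day 2 against day 1 difference was called in 11 of 27 alternatives, with adjusted p up to 0.146, and it was not called without any 1 of the untreated samples, any 1 of the day 1 samples, day 2 replicate 1 or day 2 replicate 2.

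Dnajc4, a less studied J-domain gene, was called between day 5 and day 2 but at neither time against untreated. It had values of 0.14, 0.21, 0.15 and 0.40 in untreated samples, 0.07, 0.01, -0.05 and 0.23 at day 1, -0.71, -0.03, -0.19 and 0.10 at day 2 and 0.40, 0.57 and 0.34 at day 5. The day 2 samples lay below the untreated range, with replicate 1 the farthest from it. The day 5 against day 2 change was 0.64 ± 0.16 (SE, adjusted p = 0.0079), and the day 2 against untreated change was -0.43 ± 0.15 (SE, adjusted p = 0.071). The latter was called after quantile normalization, with a sample random effect and without day 2 replicate 4.

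Fkbp9, a prolyl isomerase of the endoplasmic reticulum, ran the other way. It had values of -0.01, -0.09, -0.12 and -0.12 in untreated samples, 0.42, 0.18, 0.12 and 0.32 at day 1, 0.34, 0.33, 0.31 and 0.40 at day 2, and -0.30, -0.43 and -0.05 at day 5. Every day 1 and day 2 sample lay above every untreated and day 5 sample. Against untreated it rose by 0.43 ± 0.10 at day 2 (SE, adjusted p = 0.011), and against day 2 it fell by 0.605 ± 0.111 at day 5 (SE, adjusted p = 9.05e-04). Without untreated replicate 2 and day 2 replicate 1 together, a setting added after seeing the data, the day 2 change was again 0.43 with an adjusted p = 0.0505, and was not called.

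**Figure D2:**
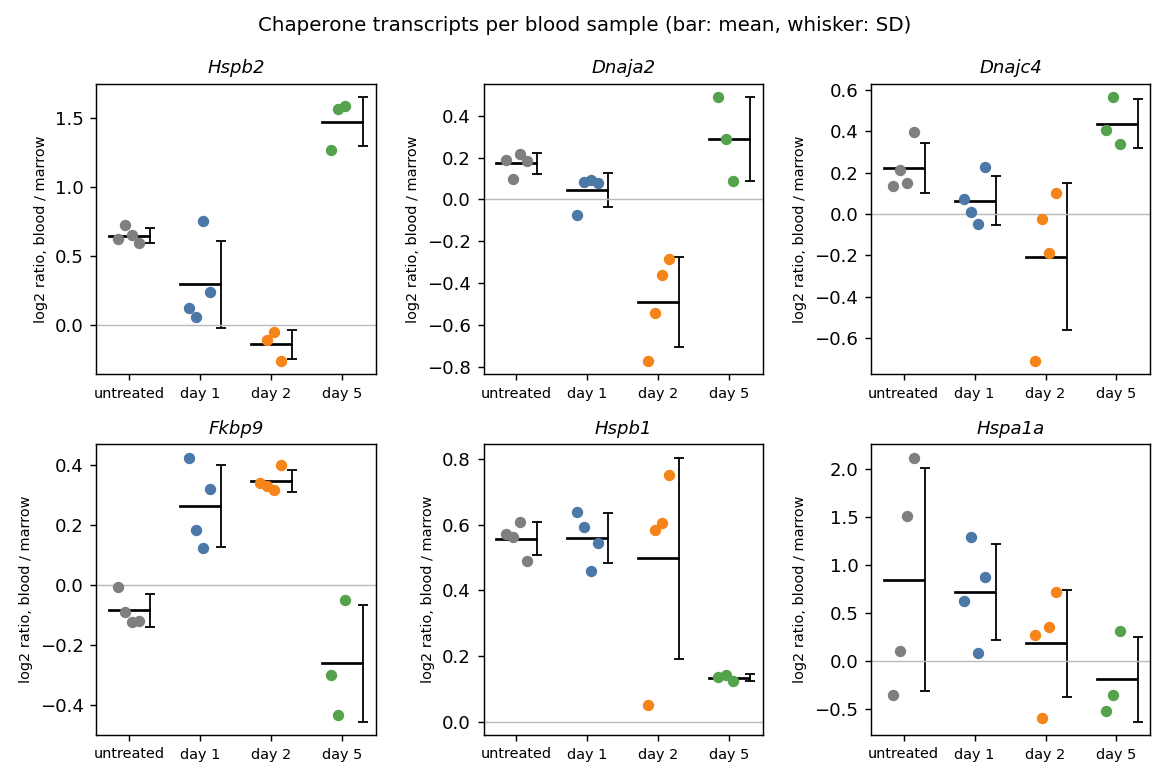
Log2 ratio of blood over marrow (vertical axis, scales differ between panels) in each sample of the untreated, day 1, day 2 and day 5 groups, with the group mean (bar) and SD (whisker), for 6 chaperone genes. Hspb2, Dnaja2 and Dnajc4 are lowest at day 2, Fkbp9 is highest at days 1 and 2, Hspb1 lies between 0.12 and 0.14 in all 3 day 5 samples, and untreated samples of Hspa1a run from -0.35 to 2.12.

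Markers of several blood cell types moved alongside these genes. Of 4 tested erythroid markers (8 of 13 are on the array), 2 were called lower at day 2 than in untreated mice, Alas2 and Bnip3l, and 2 higher at day 5 than at day 2. Hba-a1 and Klf1 were not called in any comparison, and both are part of the list means. Klf1 averaged -1.37 in untreated samples and went the other way, by 1.21, 1.31 and 1.27 at days 1, 2 and 5 (SE 0.90, 0.90 and 1.00). The mean over the list per sample lay between -0.77 and 0.17 in untreated samples, -0.53 and -0.37 at day 1, -1.48 and -0.52 at day 2 and 0.22 and 0.46 at day 5. Of the 6 tested mature neutrophil markers 5 were higher at day 2 than in untreated mice, with list means between 0.65 and 1.47 at day 2, against -0.45 and 0.09 in untreated samples. Of 6 monocyte markers 5 were lower at day 2 (list means -0.24 to -0.13, against 0.56 to 0.97 in untreated samples), as were 3 of 4 NK and cytotoxic markers and 2 of 6 B cell markers. At day 5 against day 2, 4 of 6 neutrophil markers were lower, 4 of 6 monocyte markers higher, and of 6 B cell markers 2 were higher and 3 lower. Against untreated, 3 of 6 B cell markers and 2 of 4 NK and cytotoxic markers were lower at day 5. Of 6 platelet markers 4 were higher at day 1 than in untreated mice, with list means between 3.33 and 3.65, against 2.00 and 2.18 in untreated samples. Other lists were mixed. Among 3 T cell markers Cd4 was higher at day 2 than in untreated mice and lower at day 5 than at day 2, and Cd8b1 and Lat were not called. Among 6 markers of dividing cells 2 were higher and 1 lower at day 2 than in untreated mice. At day 5 against day 2, 2 of them were higher and 2 lower. Fewer cells of a type and less RNA per cell cannot be told apart in these samples, and the part of cell composition in the chaperone changes was not tested. None of the 33 genes fell by 1 or more at day 2 against untreated, as 173 of all 6515 features did. Hspb2 was the only one to rise by 1.5 or more from day 2 to day 5, as 110 of the 6515 did. Counts of 0 and 1 among 33 genes do not set the chaperones apart from all features.

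None of 4 tested genes known as targets of heat shock factor 1, Hspa1a, Dnajb1, Bag3 and Hspb1, was called in any comparison. Between 1.09% and 25.5% of all features were called per comparison. A lack of calls among 4 genes does not set them apart from all features. Hspa1a, the inducible cytosolic HSP70, had the widest spread of the 33 genes (SD 0.73 within groups). It had values of -0.35, 0.11, 1.51 and 2.12 in untreated samples, 0.62, 1.29, 0.08 and 0.88 at day 1, 0.27, -0.60, 0.35 and 0.72 at day 2, and -0.52, -0.35 and 0.31 at day 5. The untreated samples span nearly the whole range, with replicates 3 and 4 high and 1 and 2 low. The change at day 5 was -1.03 ± 0.49 (SE, adjusted p = 0.29) and was called in none of 27 alternatives. It was -0.61 without untreated replicate 4, the highest sample, and -1.43 without untreated replicate 1. Its probe may also detect the near-identical Hspa1b, and 2 further probes annotated to both genes had no value in any column. Dnajb1, the heat-inducible partner of HSP70, lay between -0.22 and 0.12 in untreated samples and Bag3, an exchange factor induced by proteotoxic stress, between 0.12 and 0.46. The changes of Bag3 against untreated were -0.14, -0.16 and -0.0038 at days 1, 2 and 5, and those of Dnajb1 were 0.02, 0.21 and -0.10, none of them called. Dnajb1 was lower in every day 5 sample than in every day 2 sample, by 0.31 ± 0.13 (SE, adjusted p = 0.082). This difference was called with technical replicate 1 alone and without day 5 replicate 3.

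Hspb1, the small heat shock protein that binds actin filaments, had its lowest group mean at day 5. It had 0.57, 0.56, 0.61 and 0.49 in untreated samples, 0.64, 0.59, 0.46 and 0.55 at day 1, 0.05, 0.58, 0.61 and 0.75 at day 2, and 0.14, 0.14 and 0.12 at day 5. All 3 day 5 samples lay below all untreated ones, and replicate 1 of day 2 lay below them in turn. The day 5 change of -0.42 ± 0.14 (SE) did not pass (adjusted p = 0.15), and it was called with technical replicate 1 alone and without day 2 replicate 1. Against day 2 the day 5 change was -0.36 ± 0.14 (SE, adjusted p = 0.061). That change was called with complete features only, with technical replicate 1 alone and without day 2 replicate 1. It was also called without untreated replicate 2 and day 2 replicate 1 together. Technical replicates of Hspb1 differed by a median of 0.31, more than the spread between samples. Hspa9, the mitochondrial HSP70, changed by 0.34, 0.14 and 0.13 at days 1, 2 and 5, and Bag1 by 0.16, 0.0024 and -0.0065, and none passed.

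None of the 5 tested TRiC subunits was called in any comparison, where between 1.09% and 25.5% of all features were called. A lack of calls among 5 genes does not set them apart from all features. Changes of Cct2, Cct5, Cct6a, Cct7 and Cct8 against untreated ran from -0.29 to 0.19 at day 1, from -0.25 to 0.23 at day 2 and from -0.26 to 0.22 at day 5, with medians of -0.025, 0.033 and 0.17. Cct5 was the subunit furthest below marrow in untreated blood (-0.41 ± 0.08, SD, n = 4) and Cct6a the furthest above it (0.38 ± 0.14, SD, n = 4). These 5 proteins are parts of 1 complex. Their mean ratios in untreated blood lay on both sides of marrow, close to it for Cct7 (-0.09) and Cct8 (-0.03). Differences from marrow were not tested.

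In the endoplasmic reticulum, the HSP90 paralogue Hsp90b1 and the lectin chaperone Calr were measured in most samples. Hsp90b1 had 0.49, 0.55 and 0.74 in 3 untreated samples, 0.57, 0.83 and 0.89 at day 1, 0.72, 0.97 and 0.65 at day 2, and 1.41 and 0.90 at day 5. Both day 5 samples lay above the untreated ones, but the change of 0.56 ± 0.18 (SE) did not pass (adjusted p = 0.17), and its technical replicates differed by a median of 0.37. Calr changed by -0.17, -0.067 and -0.19 at days 1, 2 and 5, and its 2 probes gave -0.39 and 0.0088 at day 5. Pdia3, the disulfide isomerase that works with Calr, changed by 0.12, -0.074 and -0.26, and none of these was called. Of the 28 tested chaperone genes with a promoter in the RefSeq table of GRCm38.p6 (300 bases, of which 250 lie before the start), Calr and Hsp90b1 were the 2 that held the endoplasmic reticulum stress element, searched on both strands as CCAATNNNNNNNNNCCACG, against 0.137% of all 27025 genes in the table. Canx, Dnajc3 and Hspa5, which could not be tested, also held it. The stretches are shown because the pair shares this element and had day 5 changes of opposite sign, neither of which passed. Capitals mark the ends of each element. Both genes lie on the minus strand, and the stretches are at chr8:84847063-84847105 for Calr and chr10:86705521-86705668 for Hsp90b1.
Calr: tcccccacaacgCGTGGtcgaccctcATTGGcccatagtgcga
Hsp90b1: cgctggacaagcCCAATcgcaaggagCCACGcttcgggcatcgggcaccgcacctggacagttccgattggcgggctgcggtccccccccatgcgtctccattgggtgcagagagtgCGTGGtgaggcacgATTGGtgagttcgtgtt
The stretch of Calr runs from 174 to 132 bases before the start and holds 1 element on the opposite strand, and that of Hsp90b1 runs from 224 to 77 bases before the start and holds 2, 1 on each strand. The heat shock element, 3 alternating units of GAA and TTC with 2 bases between units, was in 0 of the 28 tested genes, in 3 of 43 untested ones (Dnajb6, Hspe1 and Hsph1) and in 0.662% of all genes. A match is a description of letters, and its absence says only that these letters are not in this window.

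Prolyl isomerases other than Fkbp9 were not called in any comparison, where between 1.09% and 25.5% of all features were called. Fkbp1a, the target of rapamycin and tacrolimus, was above marrow in every sample, with 0.73, 0.56, 0.77 and 0.84 in untreated samples, 1.19, 1.33, 0.46 and 1.85 at day 1, 0.86, 1.04 and 1.15 in 3 day 2 samples and 1.10, 1.25 and 1.84 at day 5. The samples of days 2 and 5 lay above the untreated range, but the changes of 0.29 ± 0.25 and 0.67 ± 0.25 (SE) had adjusted p = 0.50 and 0.21. Fkbp5, a glucocorticoid-induced co-chaperone of steroid receptors, changed by -0.098, -0.29 and -0.30 at days 1, 2 and 5, and Fkbp7 by 0.012, -0.29 and -0.085. Ppia, the cyclosporin target cyclophilin A, lay below marrow in all 15 samples, between -1.46 and -0.59, and changed by -0.19, -0.17 and -0.13. Ppih, a spliceosomal cyclophilin, was also below marrow in all its samples. Ppie changed by 0.31 at day 2 with no overlap with untreated samples (adjusted p = 0.22), and Ppif, the mitochondrial cyclophilin, by 0.22 at day 1.

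Of the 9 other J-domain genes (Dnajb1, Dnajb4, Dnajb7, Dnajc5b, Dnajc7, Dnajc14, Dnajc15, Dnajc19 and Dnajc30), none was called in any comparison. Per comparison between 1.09% and 25.5% of all features were called, and 9 genes are too few to differ clearly from these shares. Over all 11 tested J-domain genes median changes against untreated were -0.14, -0.012 and 0.11 at days 1, 2 and 5. Dnajc19, a J-domain protein of the mitochondrial import motor, had 0.89, 0.21 and 0.77 in 3 day 2 samples, against 0.07, 0.19, 0.59 and -0.04 in untreated samples, and the change of 0.42 did not pass. Dnajc14 lay at -0.27 and -0.34 in 2 day 5 samples, below the 0.08 to 0.13 of 3 untreated samples, with a change of -0.42 ± 0.15 (SE, adjusted p = 0.18). Dnajb7 had the smallest spread within groups of the 33 genes, an SD of 0.08.

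**Figure D3:**
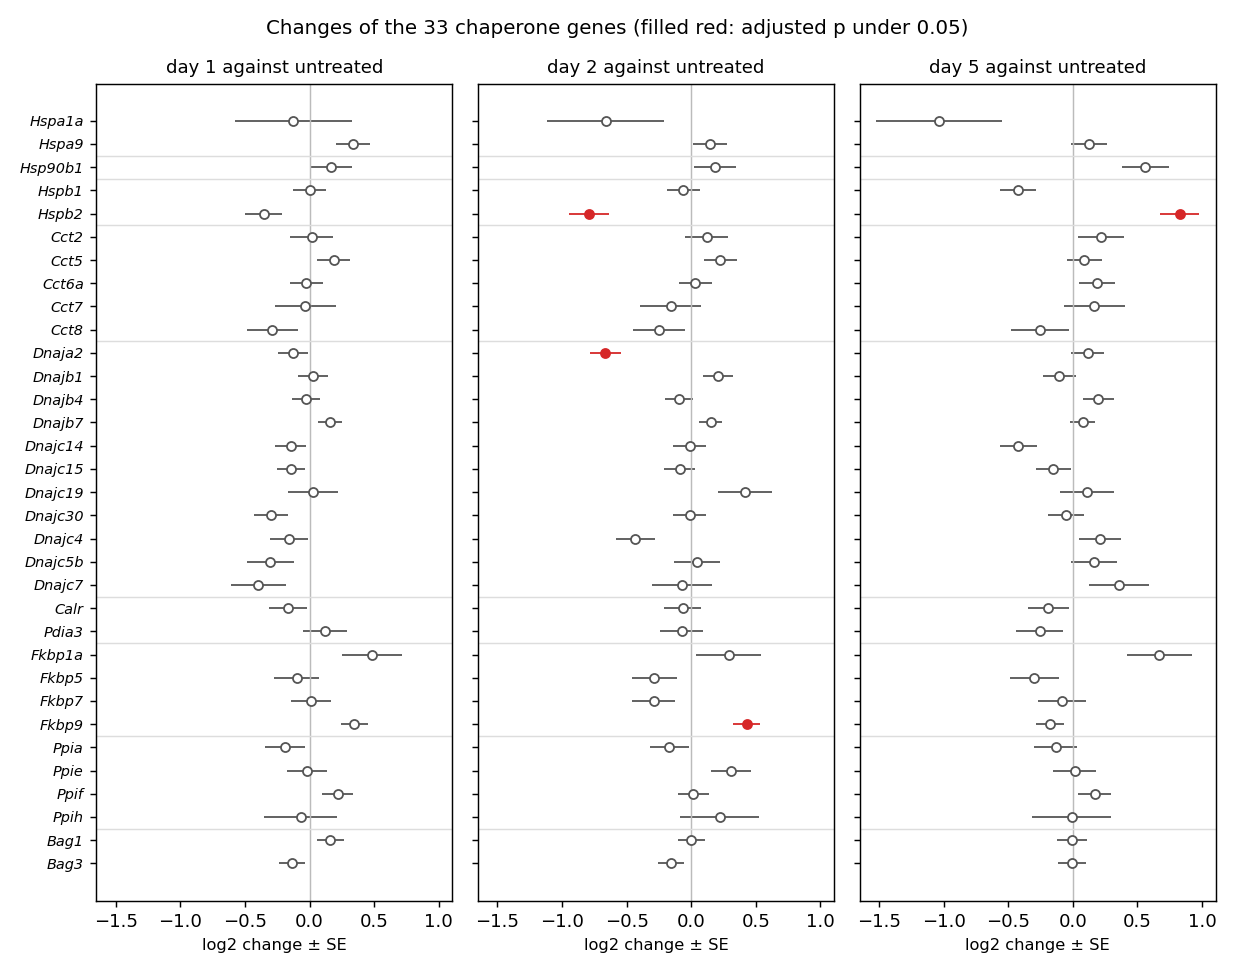
Log2 change against untreated (horizontal axis, with SE) of the 33 chaperone genes, grouped by family from HSP70 at the top to BAG at the bottom, at day 1, day 2 and day 5. Filled red points passed the test: none at day 1, Hspb2, Dnaja2 and Fkbp9 at day 2, and Hspb2 at day 5.

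Counting groups whose values did not overlap gave 6 chaperone genes at day 2 against untreated (21.4% of all features), 8 at day 5 against untreated (13.6%), 3 at day 2 against day 1 (9.21%) and 6 at day 5 against day 2 (30.4%). At day 5 against untreated, Cct2, Fkbp1a, Hsp90b1, Hspb2 and Ppif lay higher and Dnajc14, Dnajc15 and Hspb1 lower. Of these 8, Hspb2 alone passed the test, and 5 of the 33 genes (15.2%) had an unadjusted p under 0.05 there, against 17.4% of all features. Hsp90b1, Dnajc14 and Dnajc15 had only 2 values at day 5, and groups with fewer values overlap less often. Whether 8 of 33 differs from the 13.6% of features was not tested.

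Among other genes of protein folding, 2 were called against untreated. In those comparisons 4.6%, 12.7% and 1.09% of all features were called at days 1, 2 and 5. Of 61 listed co-chaperones, prefoldins, mitochondrial folding factors and proteases, and endoplasmic reticulum factors, 48 were on the array and 23 tested. Grpel1 and Grpel2 were the only mitochondrial genes of the list that were tested. At day 1 the endoplasmic reticulum channel protein Derl1 was higher (0.96, adjusted p = 0.036), and at day 2 the prefoldin subunit Pfdn1, which hands actin and tubulin to TRiC, was lower (-1.46 ± 0.28, SE, adjusted p = 0.0032). None of the 23 was called at day 5 against untreated or at day 2 against day 1. At day 5 against day 2, Pfdn1 was higher (1.37), and Sgta, Grpel1, Grpel2, Ero1a and Derl3 were lower, by -0.49, -0.52, -0.56, -0.37 and -0.45. With 1 higher and 5 lower of 23 genes, the share called was near the 25.5% of all features called there. Derl3 also stands in the plasma cell marker list. Grpel1 and Grpel2 are the exchange factors of Hspa9, whose own change in that comparison was not called. The median change of the 23 genes against untreated was 0.10, 0.085 and -0.093 at days 1, 2 and 5.

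In untreated blood the 33 genes lay on both sides of the marrow reference. Of these, 14 were above 0 in every untreated sample with a value, 9 were below and 10 were mixed, with means from -0.86 (Ppih) to 0.85 (Hspa1a) and a median of 0.013. A dye effect is part of each such ratio, and they are given as a description.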

How the data were processed

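The authors deposited 1 log2 ratio per probe and column (13443 probes, 30 columns), per the labels' dyes blood in Cy5 over marrow in Cy3; the base of the logarithm is not stated and was taken as 2, and if it is another, every log2 value is in that base. The sources used here do not give the scanner, background correction, normalization or filter. Technical replicates were averaged, then probes of a gene, named through the platform annotation (10032 probes with 1 symbol, 170 with several, left unnamed). Features with values in 3 or more samples of untreated, day 1 and day 2 and 2 or more of day 5 were tested with limma 3.58.1 in R 4.3.3 (1 mean per group, 15 samples, lmFit, eBayes, Benjamini-Hochberg over 6515 features). The series' design text calls the replicates independently harvested, without naming animals; p-values measure the spread between these samples, whose number limits the precision. The genes and lists were chosen with earlier results of these data known. Named were every gene called in any test and, called or not, a list of well-known chaperones where tested; Cct6a, Dnajb4, Dnajb7, Dnajc5b, Dnajc7, Dnajc14, Dnajc15, Dnajc19, Dnajc30, Fkbp7, Ppie, Ppif and Ppih fall outside it and were chosen after their values were seen. Alternatives were quantile normalization, other missing-value filters, single technical replicates, a sample random effect, a robust trended prior, array weights, a replicate block, fits of 2 groups, single probes and leaving out each sample.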

Additional observations from a re-analysis of the deposited data

Results flagged for a closer look

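In 78 groups of 4 samples (untreated, day 1 and day 2 for genes with all 4 values), 4 had 1 sample far from the other 3 by Dixon's criterion, where chance gives about 1 in 20, or 3.9. Dnaja2 was -0.074 in day 1 replicate 1, against 0.080 to 0.091 in the others. Dnajc30 was -0.63 in day 1 replicate 4, against -0.30 to -0.26. Fkbp5 was -0.17 in day 2 replicate 1, against -0.84 to -0.77, and Ppie was 0.15 in day 1 replicate 2, against -0.42 to -0.34.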

How the results depend on the processing

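The count of chaperone genes called stayed within 1.5 times at day 2 against untreated (3) under 27 alternatives and in the F test (4) under the 26 that were run for it. The genes behind the F test count changed. Dnajc4 was not among them with technical replicate 1 alone, without day 1 replicate 1 or 2, or without day 2 replicate 3. Dnajc4 was also missing without day 5 replicate 1 or 2, and without untreated replicate 2 and day 2 replicate 1 together. At day 1 against untreated (0) the count was 1 after quantile normalization, with complete features only, with a random effect for the sample and with a robust trended prior, 2 with array weights, and 0 to 3 when a sample was left out. At day 5 against untreated (1) it was 0 after quantile normalization, with technical replicate 2 alone and with array weights, 2 with technical replicate 1 alone, and 0 to 2 when a sample was left out. It was also 0 with complete features only, a filter under which Hspb2 was not tested because it lacks a value in day 2 replicate 1. At day 2 against day 1 (1) it was 0 after quantile normalization, with no filter on missing values, with technical replicate 2 alone, with fits of 2 groups and without untreated replicate 2 and day 2 replicate 1 together (added after seeing the data), and 0 to 1 when a sample was left out. At day 5 against day 2 (4) it was 7 with technical replicate 1 alone and 4 to 7 when a sample was left out. With the replicate number as a block it was 0 at day 2 against day 1 and changed no other count. Residuals of same-numbered samples did not go together (r -0.284 to 0.171 over 21 pairs), so the numbers were not taken as a pairing. Calls over all features, against which the chaperone counts are read, moved more. At day 1 against untreated (300) they ran from 60 without day 1 replicate 2 to 903 with array weights, with 62 without day 1 replicate 1 or 4, 80 and 72 without untreated replicate 3 or 4, 107 with the block and 462 after quantile normalization. At day 2 against day 1 (75) they ran from 3 without day 1 replicate 4 to 274 with a random effect for the sample, with 6 without day 1 replicate 3, 7 without day 2 replicate 2 and 33 with the block. At day 5 against untreated (71) they were 27, 107 and 224 without day 5 replicate 1, 2 or 3, and 407 with the random effect. They ran from 529 (without untreated replicate 4) to 1144 (random effect) at day 2 against untreated (826), and from 935 (fits of 2 groups) to 1908 (random effect) at day 5 against day 2 (1664). Dnajc4 was not called at day 5 against day 2 in fits of 2 groups (adjusted p = 0.061). The called changes of Dnaja2, Fkbp9, Hspb2 and Dnajc4 and the day 5 change of Hspa1a kept their sign under each alternative run for them, and changes of the other genes were not followed one by one. Missing values limit which genes could be tested, and the causes of these shifts were not tested.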
